A study of Mus musculus with 5 samples.

Results

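The pre-mRNA splicing factors and heterogeneous nuclear ribonucleoproteins (hnRNPs) of the mouse embryo were examined in tissue that held the pharyngeal arches. The genes were chosen by symbol: every Srsf, Hnrnp, Snrp, Sf3a, Sf3b, Prpf and U2af gene with a probe set annotated to that gene alone. The rule gave 140 of 22626 probe sets and 56 of 12393 genes on an Affymetrix Mouse Genome 430A array. They comprised 18 hnRNPs, 10 PRPF proteins, 9 SR proteins, 9 subunits of SF3A and SF3B, 8 proteins of the small nuclear ribonucleoproteins (snRNPs) and both subunits of U2AF. The genes lay on 17 chromosomes, with 6 on chromosome 11.

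There were 5 samples, called replicates 1 to 5, and all belonged to the same group. Each was a separate isolate of tissue dissected at E10.5 from wild-type embryos, and the strain, 129P2/OlaHsd, had been backcrossed for 2 generations to C57BL/6. From each isolate, 10 ng of total RNA was amplified and biotin-labelled with the WT-Ovation Pico and FL-Ovation kits. The labels do not say whether the embryos came from different litters, so p-values cover no spread beyond these 5 isolates. They also draw on the variance that limma shares across probe sets of like brightness. No sample carried a mutation or a treatment, so no contrast between conditions could be made. The tissue was measured whole, and fewer cells of a type cannot be told apart from less RNA per cell.

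Of 14 marker genes of arch mesenchyme and second heart field, 10 lay above background (71.4%), where 54.3% of all genes on the array did. They were led by the retinoic acid binding protein Crabp1 with 2740.4 ± 355 signal units and the cardiac progenitor factor Isl1 with 1387 ± 223 (SD, n = 5). Tbx1, Hand2, Dlx5 and Tcf21 did not pass. Of neuron markers 12 of 13 lay above background (92.3%), of red cell markers 4 of 9 (44.4%). Of those of liver and yolk sac endoderm 3 of 8 did (37.5%), and of those of leukocytes 1 of 10. Those of red cells that passed included the globins Hbb-y and Hbb-bh1, with means of 5639 and 4889. Replicate 4 stood apart from the other samples: its 3 probe sets of Xist, the RNA of the inactive X chromosome, read 916 to 1595, against at most 26.3 in the other samples. The Y-linked Eif2s3y read 20.1 there, against 769 to 968 in the others. The summed signals of the neuron, red cell, leukocyte and liver and yolk sac markers were also lowest in replicate 4. In the liver and yolk sac sum, Ttr read 34.4 there, against 253 to 508 in the others. No other marker of that list was lowest in replicate 4. Of the leukocyte markers only Coro1a passed, so that sum otherwise holds signals not called above background.

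Splicing removes introns from pre-mRNA in the spliceosome. The U1 snRNP binds the 5′ splice site, U2AF the 3′ splice site and the U2 snRNP, with SF3A and SF3B, the branch point. The tri-snRNP of U4, U6 and U5 then joins, and PRPF proteins help to remodel the assembly into its catalytic form. SR proteins mostly promote the use of an exon by binding enhancers within it, and hnRNPs coat nascent RNA and often oppose that choice. Nearly all of these proteins act in every cell type. Snrpn, which is imprinted and enriched in brain, is an exception.

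Promoters are shown for Srsf1, Hnrnpk and Snrpg, which include the SR and snRNP genes with the highest signal over background, and for Snrpn, the only gene whose own probe set did not pass. They are RefSeq windows of GRCm38.p6, from 250 bases before to 50 after the annotated start, given 5′ to 3′ on the gene's strand. Srsf1 is at chr11:88047123-88047422 (+), Hnrnpk at chr13:58402068-58402367 (-), Snrpg at chr6:86371290-86371589 (+) and Snrpn at chr7:60005150-60005449 (-). Capitals mark matches to the motifs listed after them, on either strand, so ATTGG is a CCAAT box and CCGCCC a GC box of the opposite strand.
Srsf1: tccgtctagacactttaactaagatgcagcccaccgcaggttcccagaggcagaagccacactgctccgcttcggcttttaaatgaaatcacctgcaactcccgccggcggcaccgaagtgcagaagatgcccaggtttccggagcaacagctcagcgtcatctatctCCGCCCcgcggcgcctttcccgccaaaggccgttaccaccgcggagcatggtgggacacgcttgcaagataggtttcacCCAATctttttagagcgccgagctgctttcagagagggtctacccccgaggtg
Hnrnpk: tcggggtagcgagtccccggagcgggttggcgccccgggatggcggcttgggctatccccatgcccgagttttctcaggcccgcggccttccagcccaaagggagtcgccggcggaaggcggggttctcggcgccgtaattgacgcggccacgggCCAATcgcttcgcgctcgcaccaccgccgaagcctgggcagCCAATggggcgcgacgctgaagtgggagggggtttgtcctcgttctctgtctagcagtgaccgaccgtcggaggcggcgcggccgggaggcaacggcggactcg
Snrpg: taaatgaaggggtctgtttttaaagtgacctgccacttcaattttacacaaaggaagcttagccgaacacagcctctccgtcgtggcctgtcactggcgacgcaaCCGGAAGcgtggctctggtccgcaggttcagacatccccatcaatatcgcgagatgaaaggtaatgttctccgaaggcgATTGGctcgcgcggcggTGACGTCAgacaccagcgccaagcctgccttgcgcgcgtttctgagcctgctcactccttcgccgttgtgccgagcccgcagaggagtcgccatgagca
Snrpn: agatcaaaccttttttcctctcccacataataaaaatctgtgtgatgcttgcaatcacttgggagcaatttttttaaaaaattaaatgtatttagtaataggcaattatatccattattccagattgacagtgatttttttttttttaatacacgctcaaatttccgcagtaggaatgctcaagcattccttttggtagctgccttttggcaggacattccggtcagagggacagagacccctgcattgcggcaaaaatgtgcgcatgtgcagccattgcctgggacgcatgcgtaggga

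The Srsf1 window held a GC box and a CCAAT box, the Hnrnpk window a pair of CCAAT boxes, and the Snrpg window an ETS motif, a reversed CCAAT box and a cAMP response element. The printed matches did not overlap. The Snrpn window, the one with the highest CpG ratio among its 4 annotated starts, held none of the motifs searched. CpG dinucleotides occurred there at 0.574 of the number that its base composition gives by chance, against 0.877 for Srsf1, 1.06 for Snrpg and 1.08 for Hnrnpk. The other 3 Snrpn windows had ratios of 0.132, 0.174 and 0.257.

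Windows were matched for 50 of the 56 genes and numbered 70, since some genes have several starts. The ratio exceeded 0.6 in 62 of them (88.6%), against 75.4% of windows of genes above background on this array and 35.8% of all 32851 promoter windows. The ETS motif CCGGAAG occurred in 34.3% of the members' windows, against 19.5% for genes above background and 8.86% of all windows. CCAAT occurred in 35 of the 70 windows, against 38.4% and 37.4%. The GC box GGGCGG occurred in 64.3%, close to the 65.3% of genes above background, and in 35.7% of all windows. The TATA box TATAAA was in 8.57%, against 7.04% and 13.6%. Of the other motifs, CACGTG was in 11.4% of the members' windows, against 10.1% for genes above background and 7.15% of all windows. ACTACAA was in 4.29%, against 4.62% and 3.24%, and TGACGTCA in 1.43%, against 3.27% and 1.79%. These are letter matches, counted on both strands. Windows of neighbouring starts overlap, and no test was made.

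Nearly every splicing gene was detected. Signals are on the linear scale of the array software, and background was the level below which 95% of the probe sets of silent gene families lay, such as olfactory receptors, hair keratin-associated proteins and caseins. It came to 17.4, 15.6, 18.1, 22.0 and 22.7 signal units in replicates 1 to 5. By limma's one-sided test with Benjamini-Hochberg adjustment, 55 of 56 member genes lay above background, where 54.3% of all genes on the array did. Of the 140 member probe sets 133 passed (95%), where 50.4% of all probe sets did. Of these 133, all but 1 lay above the level in each of the 5 samples. The exception was a Hnrnpab probe set with 21.3 in replicate 5.

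A gene with many probe sets has more chances to pass. Among genes with 1 probe set, 19 of 20 members passed (95%), against 41.5% of 7437 such genes on the array. Where a gene that passed had 2 or more probe sets, all of them passed for 30 of 36 members (83.3%), against 48.5% of 3644 genes on the array. A stricter level also drew on 31 probe sets of casein kinase and interferon receptor genes, which are not silent families, and came to 95.1 to 134 signal units. It left 109 of the 140 member probe sets above it, where 23.6% of all probe sets passed. Of the 56 genes it left 48, where 27.2% of all genes passed.

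The members also lay well above the level. The median excess over background was 4.55 log2 units over the member probe sets and 0.55 over all probe sets, and 5.20 over member genes against 0.89 over all genes. The median signal of the member probe sets was 457, against 29.4 over all. For 11 member genes (19.6%) the signal exceeded the level more than 100 times, against 2.23% of all genes. Signals of different probe sets reflect how each binds as well as how much transcript there is, so these values describe distance from background and do not rank transcripts.

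**Figure D1:**
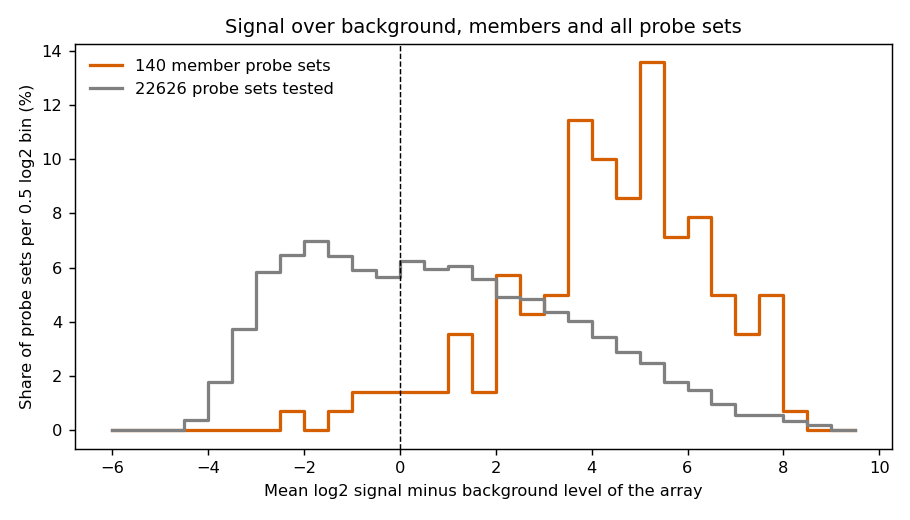
Share of probe sets (percent) by mean log2 signal over the background level, in bins of 0.5 log2 units, for the 140 member probe sets and all 22626 probe sets tested. The members centre on a median of 4.55, and all probe sets on a median of 0.55.

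At the 3′ splice site, U2af1, the U2AF subunit that contacts the terminal AG of the intron, read 682, 636, 658, 825 and 1084 in replicates 1 to 5 (777 ± 187, SD, n = 5), 5.33 ± 0.15 log2 units over background (± SE here and below; adjusted p = 9.47e-27). Its partner U2af2, which binds the pyrimidine tract, read 122.7, 98.3, 71.1, 58.9 and 44.0, which is 1.96 ± 0.23 over background (adjusted p = 7.02e-09). These SEs are limma's moderated ones, which draw also on the variance of other probe sets and on the spread of the 5 levels. They can differ from a gene's own spread: Snrpg below has an SD of 0.045 log2 units and an SE of 0.12. Each U2AF subunit had 1 probe set and lay above the level in every sample. Replicate 5 was the highest sample for U2af1 and the lowest for U2af2. Neither passed limma's variance test against probe sets of like brightness (unadjusted p = 0.25 and 0.078).

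All 9 genes of SF3A and SF3B passed, with a median gene excess of 4.29. Sf3b1, the large subunit that clamps the branch point, read 1718, 1306, 1984, 1518 and 1551, which is 6.40 ± 0.14 over background (adjusted p = 1.02e-29). Sf3b6, the small subunit that touches the branch adenosine, read 676, 848, 829, 700.1 and 704 (5.30 ± 0.15, adjusted p = 5.48e-26). Sf3b3, a scaffold of the complex, read 776, 463, 509, 678 and 620.4 (4.98 ± 0.15, adjusted p = 3.92e-25). None of the 3 came near the level in any sample. The subunits Sf3b2, Sf3b5, Sf3a3 and Sf3a1 followed, with gene excesses of 4.79, 4.29, 4.23 and 3.97.

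The lowest genes of the complex were Sf3b4, which binds RNA beside the branch point, and Sf3a2, part of the arm that joins SF3A to the U2 snRNP. Sf3b4 read 55.4, 48.2, 34.7, 42.9 and 40.5 (1.21 ± 0.21, adjusted p = 2.64e-06). Sf3a2 read 79.8, 49.5, 29.8, 37.2 and 30.4 (1.15 ± 0.23, adjusted p = 2.79e-05), with replicate 1 high. Both calls were lost with the 99th percentile as the level (adjusted p = 0.088 for Sf3b4 and 0.146 for Sf3a2), and both lay below the level drawn with casein kinases and interferon receptors.

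Among the snRNP proteins, 3 Sm proteins, members of the ring that surrounds the snRNA, had the highest excess. Snrpg read 3734, 3671, 3539, 3478 and 3715, which is 7.58 ± 0.12 over background (adjusted p = 1.98e-33). Snrpe read 2782, 2747, 2685, 2557 and 2937 (7.17 ± 0.12, adjusted p = 2.43e-32). Snrpd3 read 1795, 2295, 2559.9, 2629 and 2144 (6.90 ± 0.13, adjusted p = 2.41e-31). Snrpg and Snrpe differed little between samples, with SDs of 113 and 139 on means of 3627 and 2742, and Snrpd3 spread more, with replicate 1 lowest. Snrpb, which encodes Sm protein B, had a lower gene excess of 3.78. Snrpb2 and Snrpa1, the RNA-binding pair of the U2 snRNP, had 6.55 and 4.84, and Snrpc of the U1 snRNP had 3.83.

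Snrpn, the imprinted relative of Snrpb, was the gene that did not pass. Its own probe set read 10.0, 14.9, 7.5, 2.08 and 28.6 and lay above the level in replicate 5 alone (-1.04 ± 0.53 log2 units against the level, adjusted p = 1). A further 4 probe sets name Snrpn together with Snurf, which shares its transcript, and fell outside the rule because they name several genes. All 4 were above background, with means of 203 ± 22.4, 166 ± 19.4, 129 ± 47.6 and 103 ± 17.4 and excesses of 3.41, 3.12, 2.69 and 2.43. The uncalled probe set thus covers only part of what the array measured at this locus, and which transcripts it binds is not given in the sources used here.

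Another 10 probe sets named a member-type gene together with a gene model or pseudogene and were left out likewise. They concern Snrpd1, Snrpd2 and Snrpa with 1 probe set each, Hnrnpa1 with 3 and Hnrnpa3 with 4. All 10 were above background, from 3.15 for Snrpa to 8.65 for a Hnrnpa1 probe set that read 7095, 6915, 7605, 9096 and 7606. Hnrnpa3, Snrpd1, Snrpd2 and Snrpa are therefore not among the 56 genes, although their shared probe sets were bright.

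All 10 PRPF genes passed. Prpf4b, a kinase that phosphorylates spliceosome proteins, read 1284, 1167, 1453, 1312 and 1137 (6.06 ± 0.14, adjusted p = 8.61e-29). Prpf38a, needed to activate the assembled spliceosome, read 968, 1016, 1169, 1609 and 1432 (6.00 ± 0.14, adjusted p = 4.30e-29). Prpf19, the ubiquitin ligase at the centre of the complex named after it, read 664, 694, 532, 826 and 855 (5.21 ± 0.15, adjusted p = 3.38e-26). Prpf38a and Prpf19 were higher in replicates 4 and 5 than in the other samples, and Prpf4b was lowest in replicate 5.

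The tri-snRNP proteins Prpf6, Prpf31 and Prpf3 had gene excesses of 5.19, 4.04 and 3.46, Prpf38b had 4.48 and the U1-associated Prpf39 had 4.20. Prpf8, which holds the catalytic centre, was nearer the level: it read 74.9, 102, 93.2, 105 and 40.8, an excess of 2.06 ± 0.21 (adjusted p = 1.14e-10) with replicate 5 lowest. The lowest gene was Prpf40b, a relative of a yeast U1 protein, with 41.1, 42.1, 43.9, 31.7 and 28.2 (0.96 ± 0.22, adjusted p = 1.77e-04). Its signal exceeded the level in every sample, by the least in replicate 5. With the 99th percentile as the level Prpf40b no longer passed (adjusted p = 0.564), and its excess was then 0.16.

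All 9 SR protein genes passed, with a median gene excess of 5.74. Srsf1, the SR protein first purified as a splicing factor, had the highest excess of all 56 genes, with 6006, 5854, 4970.02, 6006 and 6287 (8.26 ± 0.11, adjusted p = 2.66e-35). Srsf3, which also helps to export mRNA, read 3454, 3672, 3889.98, 3296 and 3084 (7.51 ± 0.13, adjusted p = 1.09e-32). Srsf6 read 1866, 1739.8, 1818, 2244 and 1925 (6.65 ± 0.13, adjusted p = 3.94e-31). These 3 genes lay 306, 183 and 101 times over the level. Srsf5, Srsf2 and Srsf10 had gene excesses of 6.13, 5.74 and 4.97, and Srsf11 and Srsf9 had 4.10 and 3.88. Srsf4 was the lowest, with 145, 179, 96.3, 86.8 and 122.6 (2.68 ± 0.20, adjusted p = 1.31e-14), still above the level in every sample. Against the level drawn with casein kinases and interferon receptors its excess was 0.12 and did not pass (adjusted p = 0.938).

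The hnRNPs were the largest family, and all 18 genes and all 50 of their probe sets passed, with a median gene excess of 5.82. Hnrnpu, a nuclear scaffold protein that binds RNA and chromatin, read 5137, 4066, 4786, 4937 and 4065 (7.91 ± 0.12, adjusted p = 3.88e-34). Hnrnpk, which binds C-rich stretches, read 4359.7, 4762, 4804, 4453 and 4409 (7.91 ± 0.12, adjusted p = 3.74e-34). Hnrnph1, which binds runs of G, read 4118, 4299, 4468, 3540.2 and 3504 (7.71 ± 0.13, adjusted p = 6.27e-33). The values of Hnrnpk lay within a narrow band, while Hnrnph1 was lower in replicates 4 and 5 than in the other samples.

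Of the paralogs of Hnrnph1, Hnrnpf, Hnrnph3 and the X-linked Hnrnph2 had gene excesses of 6.39, 5.79 and 5.31. Hnrnph2 read 772, 1026, 805, 612 and 624, so replicate 4, the sample with Xist signal, was its lowest by a small margin. The exon-repressing pair Hnrnpa2b1 and Hnrnpa1 had 7.44 and 6.59, Hnrnpc, which binds runs of U, had 5.85, and Hnrnpd, which binds AU-rich elements, had 3.94, while its relatives Hnrnpdl and Hnrnpab had 6.54 and 6.69. Hnrnpm, Hnrnpr, Hnrnpul2 and Hnrnpul1 had 5.68, 5.08, 5.39 and 3.91.

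Hnrnpl and Hnrnpll are paralogs that bind CA-rich RNA. Hnrnpl was the lowest hnRNP, with 98.5, 79.7, 71.5, 67.6 and 83.6 (2.07 ± 0.19, adjusted p = 3.72e-12). Hnrnpll read 730.2, 653, 566, 356 and 579.8 (4.89 ± 0.17, adjusted p = 2.13e-23). Replicate 4 was the lowest sample for both. A second Hnrnpll probe set read 329, 330.4, 344, 227 and 330.5, again with replicate 4 apart from the other 4. The 13 measured neuron markers summed to 4278 signal units in replicate 4, against 5870 to 7938 in the others. The sums for red cell, leukocyte and liver and yolk sac markers were lowest in replicate 4 too, at 8651, 222 and 229. Among the liver and yolk sac markers only Ttr was itself lowest there, and of the leukocyte markers only Coro1a passed. The sum for arch mesenchyme markers was 7267 in replicate 4, close to the lowest of 7167 in replicate 3, against 7408 to 8815 in the others. The part of these markers in the Hnrnpll values was not tested.

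**Figure D2:**
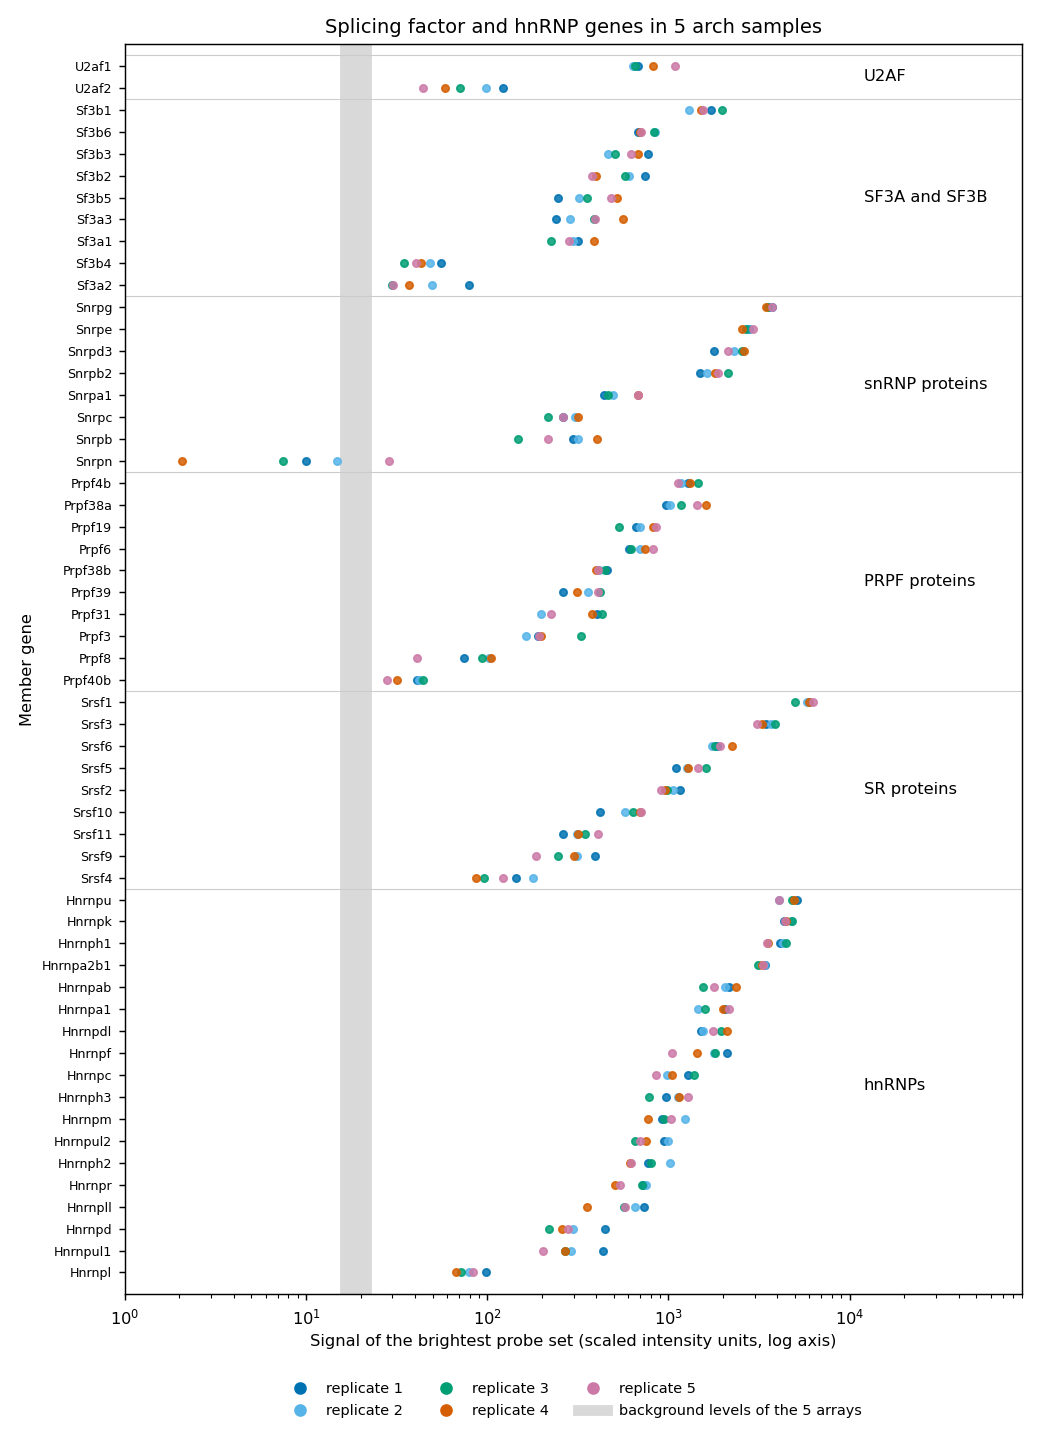
Signal of the brightest probe set of each of the 56 member genes in the 5 replicates (log axis), by family, with the range of the 5 background levels in grey. Only Snrpn has samples left of the grey band, and Srsf1 lies farthest to the right.

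Probe sets of the same gene often differed. Over the 36 genes with 2 or more, the range between their mean log2 signals had a median of 2.49 log2 units and ran from 0.02 to 6.79. Apart from Snrpn, 6 genes had a probe set that did not pass, and in each the others did. The widest was Snrpb2, where 1 probe set read 1787 ± 242 and another 16.7 ± 5.13 (24.0, 14.1, 18.8, 10.4 and 16.0). Then came Prpf6 with 699 ± 89.8 against 11.7 ± 5.21, Sf3b6 with 751 ± 80.6 against 18.3 ± 6.15, and Srsf2 with 1015 ± 95.7 against 25.9 ± 9.92. Sf3a2 and Sf3b4 had smaller gaps, of 3.48 and 1.98 log2 units, since their brightest probe sets were themselves dim. Which transcripts the dim probe sets bind was not tested.

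**Figure D3:**
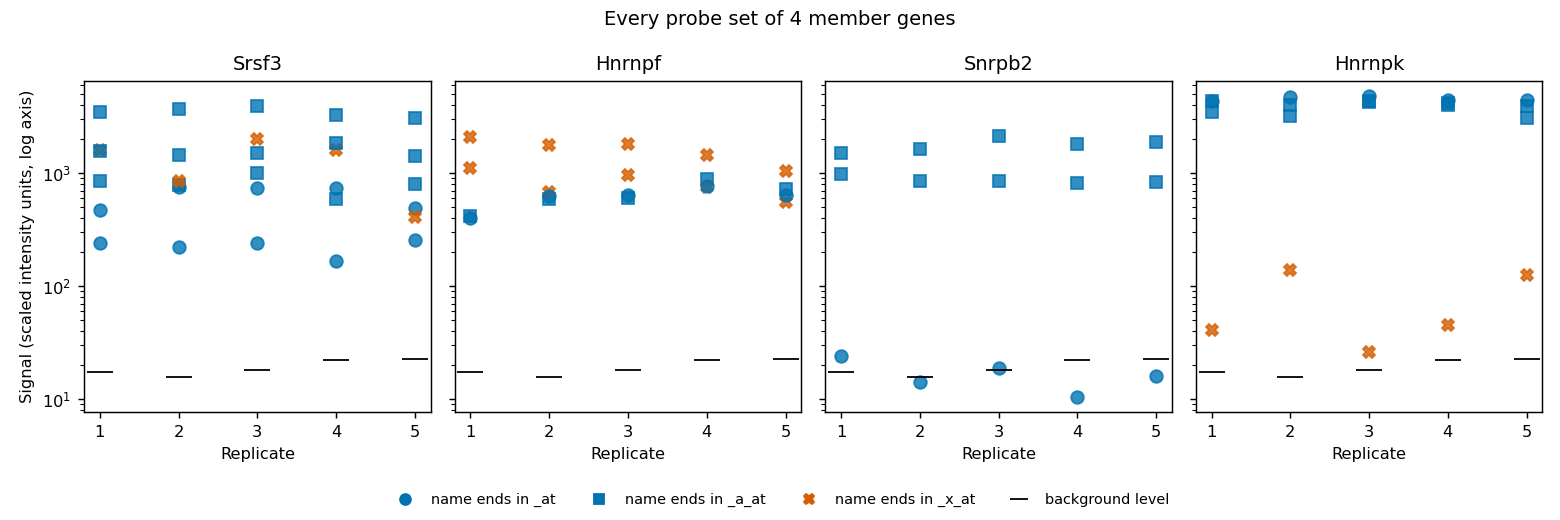
Signal (log axis) of every probe set of Srsf3, Hnrnpf, Snrpb2 and Hnrnpk in the 5 replicates, with the background level of each array as a short line and marker shape by the ending of the probe set's name. The _x_at probe set of Srsf3 falls to 409 in replicate 5, and both _x_at probe sets of Hnrnpf are lowest there while the other Hnrnpf probe sets are not.

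The spread between samples was set against that of probe sets of like brightness. Of the 134 member probe sets with a mean above the level, 0 varied more than limma's trend of variance on signal allows after adjustment, where 30 of 12852 probe sets (0.233%) did. With so small a share over the array, a count of 0 among 134 is near the background and is not a result about the members. At an unadjusted p under 0.05 there were 9 (6.72%), against 5.31% of all. Without trend and robust moderation the adjusted count was 0 over all 12852 probe sets, so that setting bears on nothing here. The median SD on the log2 scale was 0.27 for members and 0.32 for all such probe sets, but members are brighter, and set against the trend for their brightness their variance had a median ratio of 1.03, against 0.89 over all. The members thus had smaller SDs than the array as a whole but not smaller ones relative to the trend.

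The probe set nearest to the threshold was the _x_at probe set of Srsf3, a suffix that marks probes able to bind other sequences as well. It read 1591, 846, 1997, 1613 and 409, and its variance was 15.2 times the trend (adjusted p = 0.0603). Without replicate 2 it passed (adjusted p = 0.00818), as it did without replicate 1 (0.0392). Without replicate 3 it was farther from passing (0.174), and without replicate 4 it did not pass (0.0710). Without replicate 5, its lowest sample, it was no longer the most variable member. A Hnrnpk _x_at probe set then led, at 7.39 times the trend (0.852). With all 5 samples the Srsf3 probe set also passed with signals floored at 10 (0.0454) and without the filter on low values (0.000957). The other 5 probe sets of Srsf3 had ratios of 0.43 to 1.67. In replicate 5, 3 of these 5 lay below their own means, by 0.13 to 0.35 log2 units, against 1.46 for the _x_at probe set. Next was the _x_at probe set of Hnrnpk, with 41.2, 140.5, 26.1, 45.1 and 126 and a ratio of 8.49 (adjusted p = 0.340), while the other 3 Hnrnpk probe sets had ratios of 0.10 to 1.18.

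The other 7 probe sets past the unadjusted threshold belonged to Hnrnpab with 2, and to Sf3b2, Hnrnpa1, Snrpb, Srsf6 and Prpf31 with 1 each, at 3.35 to 6.41 times the trend. Their adjusted p-values ran from 0.534 to 0.936. A Hnrnpab probe set with 169, 139, 53.3, 107 and 43.4 and a Sf3b2 probe set with 275, 394, 114, 181 and 169 were the most variable of these. Both were low in replicates 3 and 5, and the brightest probe sets of Hnrnpab and Sf3b2 were not past the threshold.

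Sample by sample, the median over all members was lowest in replicate 5. The median deviation of a member probe set from its own mean was 0.04, 0.01, 0.04, 0.02 and -0.07 log2 units in replicates 1 to 5, against -0.01, 0.01, 0.00, 0.01 and 0.04 over all probe sets above the level. Replicate 5 was the lowest sample for 42 of 134 member probe sets (31.3%), against 17.2% of all. By family, replicate 5 had the lowest median for hnRNPs (-0.14) and SR proteins (-0.12) only. Its median was -0.12 for U2AF and -0.07 for SF3A and SF3B, whose lowest was in replicate 3 (-0.13 and -0.08), and -0.04 for snRNP proteins and 0.08 for PRPF proteins, whose lowest was in replicate 1 (-0.04 and -0.11). Probe sets of the same gene are not independent here. The sum of the 9 red cell markers was also highest in replicate 5, at 17259 against 8651 to 14118 in the others, and so was that of the 8 markers of liver and yolk sac endoderm, at 1156 against 229 to 629. Their part in the deviation was not tested.

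The low values of replicate 5 were deepest among _x_at probe sets, a split made after the values were seen. The 16 such member probe sets had median deviations of 0.24, -0.02, 0.16, 0.01 and -0.37 in replicates 1 to 5, and 11 of the 16 lay below their own mean in replicate 5. Over all 1012 _x_at probe sets above the level the medians were 0.10, 0.02, -0.04, -0.05 and 0.04. The share of those 1012 below their own mean was not computed. Among the 72 member probe sets with the plain _at ending the median in replicate 5 was -0.06. It was -0.06 for the 29 ending in _a_at and 0.01 for the 17 ending in _s_at, so the last did not share the low value.

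Hnrnpf showed the split within a gene. Its _x_at probe sets read 2097, 1787, 1817, 1435 and 1047 in one case and 1121, 682, 961, 754 and 557 in the other. The remaining probe sets read 416, 591, 601, 888 and 729, and 400.7, 631, 634, 769 and 637. The first pair was highest in replicate 1 and lowest in replicate 5, whereas the second pair was lowest in replicate 1 and highest in replicate 4. The _x_at probe sets of Hnrnpk, Prpf19, Prpf6 and Hnrnpa1 went the other way and lay above their own means in replicate 5, and so did that of Sf3b5.

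**Figure D4:**
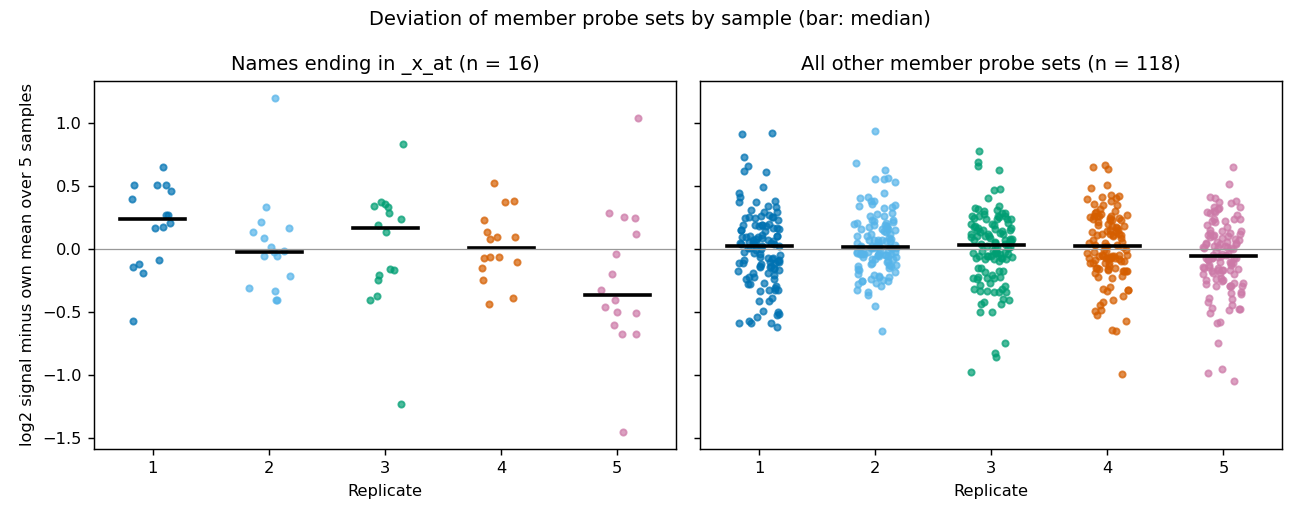
Deviation of each member probe set from its own mean over the 5 samples (log2 units) by replicate, for 16 _x_at probe sets and 118 others, with bars at the medians. The _x_at points have a median of -0.37 in replicate 5 and 0.24 in replicate 1.

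The members were also compared between pairs of samples. The median absolute difference between samples over the member probe sets ran from 0.241 log2 units, for replicates 4 and 5, to 0.333, for replicates 1 and 5. Over all probe sets above the level it ran from 0.239 to 0.384. Across the member probe sets, Pearson's r between samples was 0.946 to 0.977, which mainly reflects the wide range of signals that all samples share.

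Most other genes of the pathway also lay above background. Of the core spliceosome genes outside the 6 families, all 42 measured genes of 51 listed passed, with a median excess of 3.83. The highest were the PRP19-related Bud31 with 3085 ± 473, the RNA helicase Ddx39b with 2422 ± 446 and the helicase Dhx15, which takes spliceosomes apart, with 2012 ± 145 (SD, n = 5). Of the exon junction complex and SR-related proteins, all 13 measured of 16 listed passed, led by Luc7l3 with 4385 ± 312, Rbm39 with 4024 ± 575 and the exon junction core protein Rbm8a with 2376 ± 335. Of 9 genes of SR protein kinases and import, 8 passed. They were led by the kinase Clk1, which phosphorylates SR proteins, with 2032 ± 432, and the muscle-enriched kinase Srpk3 did not pass, with 7.03 ± 4.87.

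All 10 measured genes of 14 listed for snRNP assembly by the SMN complex and the methylosome passed, with a median excess of 2.55. The highest were Strap with 877 ± 168, Clns1a with 759 ± 148 and the snRNA export adaptor Phax with 290 ± 68.4. With the level drawn from casein kinases and interferon receptors as well, 4 of the 10 passed. Of other regulators of alternative splicing 23 of 26 measured passed, led by Ewsr1 with 6197 ± 806, Khdrbs1 with 4330 ± 750 and Nono with 3147 ± 383. Mbnl3, Khdrbs2 and Cirbp did not, the last by a small margin (adjusted p = 0.0531).

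Of the regulators restricted to certain tissues, 8 of 12 measured of 18 listed passed (66.7%), a share near the 54.3% of all genes. Against the level drawn with casein kinases and interferon receptors 5 of the 12 passed, where 27.2% of all genes did. The neuronal Elavl2 and Elavl4 read 702 ± 128 and 498 ± 122, and the epithelial Esrp2 read 668 ± 86.3. Rbfox3, Nova1, Srrm4 and Rbm38 did not pass, at 9.56 ± 7.75, 24.5 ± 11.7, 6.94 ± 6.38 and 19.3 ± 5.79. Elavl4, itself among the neuron markers, was lowest in replicate 4, at 311 against 497 to 654. Elavl3, also among those markers, was lowest there too, at 173. Elavl2 was lowest in replicate 2, at 603, and Celf4 was highest in replicate 4, at 69.4.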

How the data were processed

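Total RNA of 5 tissue isolates was hybridised to Affymetrix Mouse Genome 430A arrays. Signals came from GCOS, as named in the submitters' processing notes, whose version is not given in the sources used here. Intensity values as deposited are 1 linear signal per probe set, scaled so that the mean after trimming 2% at each end was 150.1 on every array. Raw probe intensities and detection calls were not used here, and the number of arrays limits the precision.

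The table held 22690 probe sets, and 64 controls were left out. Of the other 22626, 20380 had 1 gene, 691 several and 1555 none in the platform annotation; 20351 were matched to RefSeq symbols by Entrez identifier. Signals were floored at 1 and taken to log2. Background was set per array at the 95th percentile over 205 probe sets of 171 genes from silent families, 2 of which the test called. Excess over it was tested with limma 3.58.1 in R 4.3.3 (intercept only, eBayes with robust trend, one-sided), with Benjamini-Hochberg adjustment over all 22626 probe sets and a threshold of 0.05. A gene passed if any of its probe sets did, and its value is that of its brightest probe set by mean log2. Variability was an F test of each variance against limma's trend, over 12852 probe sets with a mean above the level. In simulated data of the same size, detection recovered 9.5%, 77.5% and 100% of probe sets set 0.5, 1 and 2 log2 units over the level, and 6.73% of its calls were false. There, 200 probe sets of each size were raised and all others were held at or below the level, whereas 50.4% passed in the data. The Benjamini-Hochberg threshold depends on that share, so these percentages do not carry over to the data. In simulated data the variability test recovered 58.5% and 97.5% of probe sets with 3 and 6 times the SD.

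Values per sample are given for the 3 highest genes and the lowest of each family, for the widest disagreements between probe sets, and for probe sets with a sample far from the others. Some further genes were named after their values were seen. The member genes and the other lists were chosen with earlier results of these data known. RefSeq promoters of 6 members (Hnrnpul2, U2af2, Sf3b4, Hnrnpll, Snrpb and Sf3b5) were not matched. Protein sequences were not used here. Alternatives concerned the level, the floor, normalization, moderation, the probe sets used, the member rule, the gene value and each replicate left out.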

Additional observations from a re-analysis of the deposited data

Results flagged for a closer look

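A sample lay far from the other 4 in 6 of the 140 member probe sets, where the gap to the nearest sample exceeded 0.71 of the range of the log2 signals (Dixon's limit for 5 samples). Chance flags about 1 in 20 groups with normal spread, so this share is not above what chance gives. The share over all probe sets was not computed, so the count is not a result about the members. Replicates 1, 3 and 4 held 2 each. Replicate 4 was low for a Hnrnpll probe set, with 227 against 329 to 344 in the others (gap 0.895 of the range), and high for a Snrpa1 probe set, with 409 against 283 to 307 (0.777). Replicate 3 was high for Prpf3, with 329 against 165 to 198 (0.735), and low for the uncalled Sf3b4 probe set, with 6.03 against 12.5 to 13.9, all below background (0.874). Replicate 1 was high for a Snrpb2 probe set, with 992 against 826 to 859 (0.785), and low for a Hnrnpdl probe set, with 752 against 894 to 954 (0.728). The brightest probe sets of Snrpa1, Snrpb2 and Hnrnpdl did not pass this limit, and that of Hnrnpll had replicate 4 lowest too, at 356 against 566 to 730.2.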

How the results depend on the processing

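No paired analysis was possible because all samples belong to 1 group. Over the alternatives that tested all 56 member genes, the number above background ran from 48 to 55. The low of 48 came with the level that drew on casein kinases and interferon receptors too. With plain _at probe sets only it was 45, but member genes without such a probe set were not tested there. Leaving out any 1 replicate changed no member gene's call. Of member probe sets 70 passed among the 75 with the plain _at ending. With the level that drew on casein kinases and interferon receptors too, 5336 of all probe sets and 3374 of all genes passed, and with plain _at probe sets only, 7247 of all probe sets passed. Hnrnpl (-0.49), Prpf8 (-0.50), U2af2 (-0.59), Sf3b4 (-1.35), Sf3a2 (-1.40) and Prpf40b (-1.60) lay below the level drawn with casein kinases and interferon receptors. The brightest probe sets of these genes lay above the level of the silent families in every sample. The level drawn with casein kinases and interferon receptors left 4 snRNP assembly genes and 5 tissue-restricted regulators. With the mean of all probe sets of a gene Sf3a2 was at -0.59. With plain _at probe sets Snrpb2 was at -0.24, since its bright probe sets end otherwise. In that setting 4 SR kinase and import genes and 5 snRNP assembly genes passed. Genes of these lists without a plain _at probe set were not tested there, so these counts are not out of the full lists. The members' median deviation in replicate 2 was 0.074 with plain _at probe sets. The count of member probe sets varying beyond the trend was 1, the Srsf3 _x_at probe set, with a floor of 10 and with no filter on low values, and ran from 0 to 1 when replicates were left out. Over all probe sets that count ran from 8, without replicate 4, to 41, without replicate 2. Genes within about 1 log2 unit of the level (Prpf40b, Sf3a2, Sf3b4) are those for which signal over background limits the call.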
